A study of Homo sapiens with 36 samples.

Results

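Hairpin 2 was set against hairpin 1 in WiDr, a human colorectal adenocarcinoma cell line, by poly-A RNA sequencing. The comparison rests on 6 of the 36 libraries of the series, chosen by their labels: 3 of WiDr cells that express short hairpin RNA number 2 and 3 that express number 1. Both hairpins address the same gene, so the comparison asks which transcripts differ between hairpins that have a target in common. The control arm of 3 WiDr libraries with a non-silencing hairpin gives the reference level of each gene. All 9 libraries carry the same vector, pGIPZ, a lentiviral vector that places the hairpin in a microRNA backbone. The same 3 arms in MDA-MB-468, a basal-like breast cancer line, and PANC-1, a pancreatic carcinoma line, were used to ask whether the difference is seen outside WiDr. The design text calls the 3 libraries of an arm biological replicates. The labels do not say whether an arm is a pool of infected cells or 1 clone, when it was sampled after infection, or whether replicates came from separate infections. The p-values therefore measure the spread between these libraries, and the hairpin, how far each one silenced the target, the infection and later drift of the cells cannot be told apart.

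The 9 libraries held 28371119 to 49237321 expected counts. The share of ribosomal RNA in the counts was 5.38% to 10.2% with hairpin 2, 1.27% to 2.56% with hairpin 1 and 1.59% to 2.71% in the control arm, so the hairpin 2 arm stands above the other 2 arms without overlap. RNA28S5 and RNA45S5 were higher with hairpin 2 (log2 2.27 and 2.80), and RNA18S5 (1.03) and RNA5-8S5 (0.51) did not pass. Replicate 1 of hairpin 1 stood apart from its arm in ribosomal protein genes, and replicate 3 of hairpin 2 in ribosomal RNA. Values without these libraries are given where they matter. The epithelial genes EPCAM (589, 694 and 533 CPM, counts scaled to library size, in the control, hairpin 1 and hairpin 2 arms) and KRT18 were high in every arm, and of 30 intestinal markers 21 were tested, among them KRT20, VIL1 and LGALS4. The intestinal factor CDX2 lay between 1.73 and 3.08 CPM, and GPA33, FABP1 and OLFM4 had 0 to 6 counts. The mesenchymal gene VIM had 0 to 7 counts. Of the leukocyte markers, PTPRC had 0 or 1 count and CD3E and MS4A1 had 0 in every library, PDGFRA had 0 among the fibroblast markers and KDR had 0 among the endothelial ones.

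Type I and type III interferons bind receptors that act through JAK kinases, and STAT transcription factors join IRF9 to enter the nucleus. There they bind a short DNA element, the interferon-stimulated response element, in front of genes for antiviral proteins such as the IFIT, MX and OAS families. Epithelial cancer lines often keep some of these genes on without added interferon, and double-stranded RNA, which the sensors RIGI and IFIH1 read, is a known trigger.

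The core of that element, GAAA followed by any 2 bases and a second GAAA, was searched on both strands in the RefSeq promoter windows (build GRCh38.p14, 250 bases before to 50 after the start). Overlapping matches were counted. Of 11117 tested genes with a window, 305 (2.7%) held it. Among genes at least 2-fold lower with hairpin 2, 29 of 126 did (23.0%), against 5 of 179 (2.8%) of those at least 2-fold higher. Within the interferon lists described below the share was 36 of 79 (45.6%), and it was 7 of 89 (7.9%) for genes at least 2-fold lower that no interferon list holds. The windows below come from 7 genes that were lower with hairpin 2, and capitals mark each match to the core.
IFIT1, chr10:89392485-89392564, plus strand: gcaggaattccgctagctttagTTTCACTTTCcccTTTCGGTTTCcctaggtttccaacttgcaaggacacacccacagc
IFIT3, chr10:89327840-89327919, plus strand: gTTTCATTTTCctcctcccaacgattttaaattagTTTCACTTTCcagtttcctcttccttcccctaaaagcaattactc
ISG15, chr1:1013355-1013434, plus strand: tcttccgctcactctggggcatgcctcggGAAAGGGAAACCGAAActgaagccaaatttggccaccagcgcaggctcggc
IFI27, chr14:94110606-94110685, plus strand: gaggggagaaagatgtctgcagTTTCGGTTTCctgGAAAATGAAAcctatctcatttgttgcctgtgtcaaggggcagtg
IFI6, chr1:27672241-27672320, minus strand: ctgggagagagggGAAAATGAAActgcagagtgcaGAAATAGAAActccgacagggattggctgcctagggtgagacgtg
BST2, chr19:17405710-17405789, minus strand: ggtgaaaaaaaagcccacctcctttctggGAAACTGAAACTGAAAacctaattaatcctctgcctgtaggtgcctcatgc
TAP1, chr6:32853788-32853867, minus strand: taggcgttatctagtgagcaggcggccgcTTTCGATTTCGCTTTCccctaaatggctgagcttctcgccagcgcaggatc
In ISG15, BST2 and TAP1 the marked run is 2 overlapping matches, and in IFIT1 and IFI27 the 2 matches lie 3 bases apart. A match describes the letters of the window and is not a measured binding site. No match was found in the windows of OAS1, XAF1, UBE2L6, RSAD2, PSMB9, IFI16 or CMPK2, which were also lower.

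Interferon-stimulated genes made up all 12 of the largest falls by the naming rule, while the mucus genes FCGBP, TFF3 and MUC2 stood among the 12 largest rises. Differences were frequent but small for most genes. Of 14317 genes tested, 6071 differed (42.4%): 2947 were higher with hairpin 2 (20.6%) and 3124 lower (21.8%), by edgeR's quasi-likelihood test with a Benjamini-Hochberg adjusted p under 0.05. Of the 6071, 4829 (79.5%) differed by less than 1.5-fold. At least 2-fold differences were found for 449 genes (3.14%), 271 higher (1.89%) and 178 lower (1.24%). The median log2 difference over all genes tested was 0.00, with the 5th percentile at -0.57 and the 95th at 0.69. Leaving out both libraries that stood apart, an alternative chosen after seeing the data, left 5122 genes that differed and 411 at 2-fold.

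**Figure D1:**
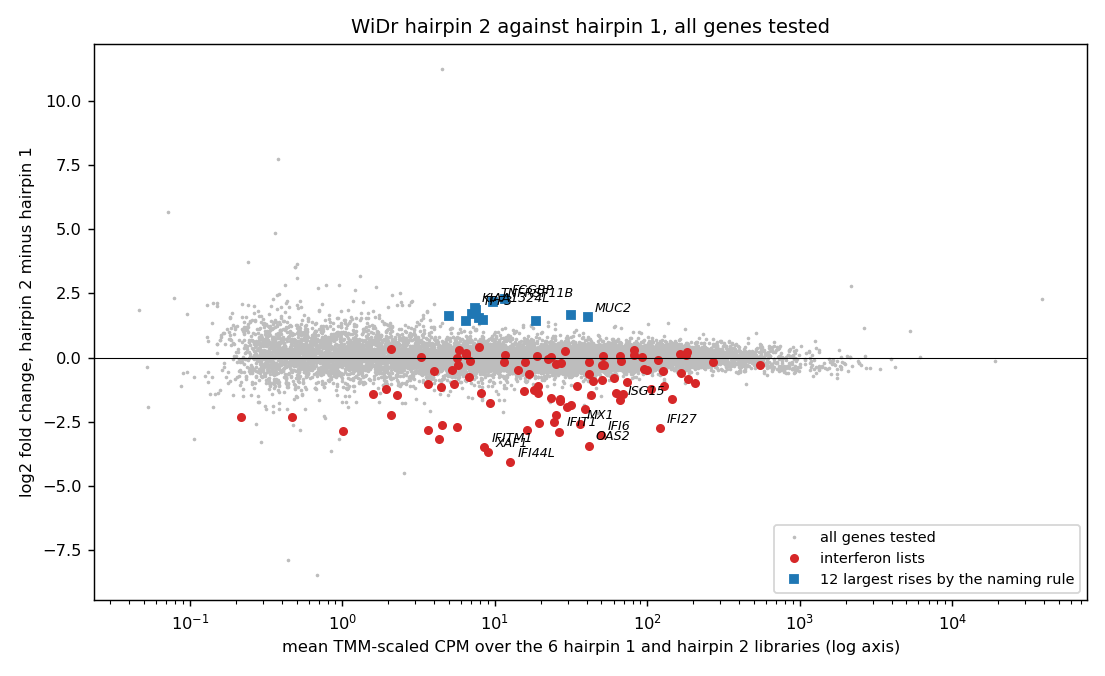
Each point is 1 of the 14317 genes tested: the x axis is the mean TMM-scaled CPM over the 6 hairpin libraries on a log axis, and the y axis is the log2 fold change of hairpin 2 over hairpin 1. Red points are interferon list members, which reach down to -4.07, and blue squares are the 12 largest rises by the naming rule, led by FCGBP at 2.28.

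Effector genes of the interferon response were lower with hairpin 2 as a block. In the list of IFIT, IFI and MX effectors, all 34 members tested were lower, 25 of them at least 2-fold, with a median log2 difference of -1.49 beside 0.00 over all genes. Over all 9 interferon lists, 100 of 118 members were tested, 74 were lower, 5 higher and 21 did not pass, and the median was -0.89. Counts between the hairpins in these lists, here and below, stand beside 21.8% lower and 20.6% higher over all genes tested. Fewer cells with these transcripts and less transcript per cell cannot be told apart in bulk RNA.

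IFI44L (chromosome 1, 78619922 to 78646145), an interferon-induced gene that restrains viral replication, was measured at 22.8, 20.3 and 21.0 CPM in the control libraries, 25.1, 23.4 and 23.2 CPM with hairpin 1 and 1.44, 1.29 and 1.60 CPM with hairpin 2. The control and hairpin 1 libraries lie together and every hairpin 2 library lies far beneath them, 16.8-fold lower than hairpin 1 (log2 -4.07, SE 0.102, adjusted p = 1.34e-13, edgeR quasi-likelihood test). XAF1 (chromosome 17, 6755447 to 6775647), which encodes an apoptosis-promoting partner of XIAP, stood at 27.5, 25.5 and 23.3 CPM in the control, 17.3, 16.3 and 16.5 CPM with hairpin 1 and 0.915, 1.31 and 1.67 CPM with hairpin 2. Here hairpin 1 already lies beneath the control (log2 -0.61), and hairpin 2 lies 12.9-fold beneath hairpin 1. IFITM1 (chromosome 11, 313506 to 315272), a membrane protein that blocks virus entry, was at 17.5, 15.5 and 14.0 CPM with hairpin 1 against 0.915, 1.37 and 1.93 CPM with hairpin 2, and its control libraries (17.4, 17.9 and 16.2 CPM) overlap those of hairpin 1.

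Further members fell by 5.99-fold to 8.15-fold. IFI27 (chromosome 14, 94104836 to 94116698), a mitochondrial and nuclear membrane protein, went from 241, 205 and 183 CPM with hairpin 1 to 29.1, 32.4 and 31.4 CPM with hairpin 2, and the control stood at 380, 448 and 421 CPM. IFI6 (chromosome 1, 27666061 to 27672218), which protects against replication of flaviviruses, had 102, 85.5 and 77.5 CPM with hairpin 1, 9.90, 11.7 and 10.7 CPM with hairpin 2 and 203, 237 and 228 CPM in the control. For both genes the 3 arms form 3 separate steps. IFIT1 (chromosome 10, 89392546 to 89406486), which binds viral RNA that lacks the host cap mark, was at 49.6, 46.7 and 44.0 CPM with hairpin 1 and 5.88, 7.14 and 5.60 CPM with hairpin 2, with the control at 43.6, 44.2 and 42.3 CPM. MX1 (chromosome 21, 41420304 to 41459214), a dynamin-like antiviral GTPase, was at 62.1, 62.7 and 60.4 CPM with hairpin 1 and 10.5, 9.87 and 10.7 CPM with hairpin 2.

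The remaining members of the list had log2 differences from -3.15 (CMPK2, a nucleotide kinase next to RSAD2) to -0.27 (LGALS3BP, a secreted glycoprotein). Among them were MX2 (-2.82), IFITM3 (-2.52), the antiviral radical enzyme RSAD2 (-2.61), the nucleotide phosphohydrolase SAMHD1 (-1.58), the tether BST2 (-1.40) and the nuclear body gene SP100 (-0.96). All 34 were lower in every hairpin 2 library than in any hairpin 1 library, a separation that 27.7% of all genes tested show in this direction. Beside the control, the list's median was -0.20 with hairpin 1 and -1.94 with hairpin 2, 2 contrasts that use the same control libraries. In the first, 17 members were lower and 1 higher, where 23.9% and 24.1% of all genes tested were. In the second, 34 were lower and none higher, where 22.5% and 22.2% of all genes tested were. Close relatives such as IFITM1, IFITM2 and IFITM3 share sequence, and how the counting divided shared reads makes the level of each one uncertain.

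**Figure D2:**
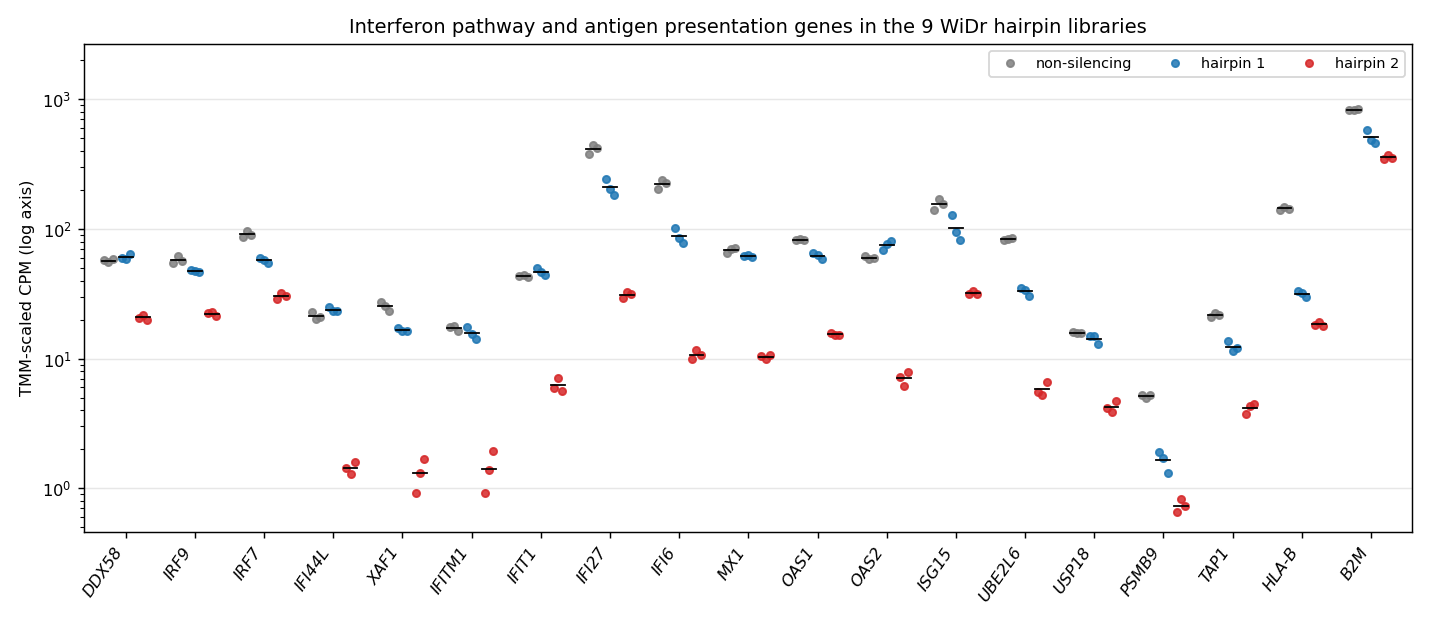
TMM-scaled CPM on a log axis of 19 interferon pathway and antigen presentation genes, 1 point per library and a black bar at the mean of each arm (n = 3). For IFI44L, IFIT1 and MX1 the grey control and blue hairpin 1 points lie close together and the red hairpin 2 points lie lower. For HLA-B the blue points are already well beneath the grey ones. RIGI is shown under its older symbol, DDX58.

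The OAS enzymes make a nucleotide messenger when they meet double-stranded RNA. OAS2 (chromosome 12, 112978395 to 113011723) was at 68.8, 76.8 and 80.2 CPM with hairpin 1 and 7.22, 6.11 and 7.93 CPM with hairpin 2, and hairpin 1 lay above the control libraries (62.2, 58.5 and 59.6 CPM). OAS1 (log2 -2.00), OASL (-1.62) and OAS3 (-1.60) were lower too.

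ISG15 is a ubiquitin-like protein, and the genes that attach or remove it followed the same direction: all 6 tested were at least 2-fold lower, with a median of -1.70. ISG15 (chromosome 1, 1001138 to 1014540) had 128, 93.9 and 82.1 CPM with hairpin 1 and 31.5, 33.3 and 31.3 CPM with hairpin 2. Its hairpin 1 libraries spread more than those of hairpin 2, with replicate 1 highest, and the arms do not overlap. The conjugating enzyme UBE2L6 (chromosome 11, 57551656 to 57568284) stepped down across the arms, from 82.0, 84.3 and 85.9 CPM in the control to 35.0, 34.0 and 30.6 CPM with hairpin 1 and 5.56, 5.25 and 6.58 CPM with hairpin 2. The protease USP18 (-1.75), the activating enzyme UBA7 (-1.21) and the ligases HERC5 (-1.14) and HERC6 (-1.83) complete the group. HERC5 departs from the rest beside the control, with log2 1.40 for hairpin 1 and 0.27 for hairpin 2, so here hairpin 1 is the arm that differs most from the control.

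Sensors of foreign RNA and DNA were lower for 10 of 13 tested (median -0.35), beside 21.8% of all genes tested. The DNA sensor IFI16 went from 9.64, 9.41 and 10.2 CPM with hairpin 1 to 1.31, 1.70 and 1.46 CPM with hairpin 2. RIGI, which detects short double-stranded RNA with a triphosphate end, went from 59.9, 58.1 and 63.8 CPM to 20.7, 21.8 and 20 CPM, and its hairpin 1 libraries are as high as the control (57.3, 55.2 and 58.2 CPM). IFIH1, which detects long double-stranded RNA (-1.44), the helicase DDX60 (-1.91), DHX58 (-1.03) and the kinase EIF2AK2 (-0.78) also fell, each of them a gene that interferon itself induces. The signalling partners moved little: the kinase TBK1 was at -0.19, the adaptor MAVS at 0.24 in the other direction, and IKBKE and the endosomal sensor TLR3 did not pass (0.00 and 0.04).

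Most interferon transcripts themselves were rare. Of 10 ligand genes, 8 were too low to test, with IFNB1 at 1 to 10 counts with hairpin 1 and 0 to 2 with hairpin 2, and IFNL2 at 2 to 9 against 0 to 1 counts. IFNL1, a type III interferon of epithelia, was at 0.403, 0.321 and 0.401 CPM with hairpin 1 and 0.0327, 0.144 and 0 CPM with hairpin 2 (log2 -2.31, SE 0.588, adjusted p = 0.00516, edgeR). The control libraries (0.157, 0.231 and 0.191 CPM) lie between those arms. IFNE, an interferon of epithelia that is made without infection, was at 8.02, 8.35 and 9.005 against 4.67, 5.52 and 4.73 CPM (log2 -0.76), with the control at 5.95, 6.98 and 6.13 CPM. At these counts the level of IFNL1 is close to the limit of detection.

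Of 15 receptor, JAK and STAT genes, 2 were lower, 1 was higher and 12 did not pass, with a median of 0.04. Over all genes tested, 21.8% were lower and 20.6% higher. STAT2 was at -0.20 (adjusted p = 0.0533, edgeR), and the receptor genes IFNAR1 (0.06), IFNAR2 (0.20) and IFNLR1 (0.09) did not pass. Among 8 regulatory factors tested, IRF9 (-1.09), IRF7 (-0.90), IRF5 (-0.47) and IRF3 (-0.46) were lower and IRF1 (0.11), the factor most tied to interferon gamma, did not pass. IRF9 (chromosome 14, 24161053 to 24166565), the DNA-binding partner of STAT factors, was at 48.2, 47.6 and 46.2 CPM with hairpin 1 and 22.4, 22.9 and 21.4 CPM with hairpin 2.

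Antiviral PARP and TRIM genes were lower for 10 of 13 tested (median -0.52). This count and that of the leukocyte markers below stand beside 21.8% lower over all genes tested. PARP9 (-1.38) and its partner DTX3L (-0.52), PARP10 (-1.10), PARP12 (-0.87), PARP14 (-0.81) and TRIM22 (-2.87, from 1.38 to 2.38 CPM with hairpin 1 to at most 0.349 CPM) were lower, and TRIM5 (0.25) and TRIM56 (0.29) higher. Of the guanylate-binding proteins, which attack vacuoles of pathogens and respond most to interferon gamma, GBP1 (-1.46) and GBP4 (-1.43) were lower at 3.06 to 3.60 and 2.25 to 2.38 CPM with hairpin 1. GBP2 (0.11) and GBP3 (-0.06) did not pass. Among markers of other cell types, 4 of 9 leukocyte markers were tested and all 4 were lower with hairpin 2: LYZ (-0.51), CD14 (-1.46), ITGAM (-0.69) and CD68 (-0.45). Their summed level was 1502 to 1530 CPM in the control, 2340 to 2579 CPM with hairpin 1 and 1660 to 1785 CPM with hairpin 2, almost all of it LYZ, which epithelial cells also make, while PTPRC, CD3E and MS4A1 were at or near 0. Of 9 fibroblast markers 2 were tested and neither passed, and of 7 endothelial markers 2 were tested and TEK was lower (-1.08).

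Removing the ribosomal RNA genes left all 34 IFIT, IFI and MX effectors lower with a median of -1.49, and leaving out both libraries that stood apart left 32 of 34 with a median of -1.52.

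Antigen presentation showed another pattern, in that much of the distance to the control was already present with hairpin 1. Of 11 class I genes tested, 8 were lower with hairpin 2 and none higher (median -0.47), beside 21.8% and 20.6% of all genes tested. Beside the control the median was -0.71 with hairpin 1 and -0.99 with hairpin 2. B2M, the shared light chain of class I molecules, was at 833, 821 and 849 CPM in the control, 580, 486 and 459 CPM with hairpin 1 and 347, 374 and 354 CPM with hairpin 2. HLA-B, a classical class I heavy chain, was at 33.2, 31.8 and 29.6 CPM with hairpin 1 and 18.3, 19 and 17.9 CPM with hairpin 2 (log2 -0.77, SE 0.0607), beside 141, 149 and 142 CPM in the control. HLA-C (-0.36), HLA-F (-1.0), HLA-E (-0.16) and NLRC5 (-0.79), the transactivator of class I genes, were also lower. The class I heavy chains are near copies of one another and their reads can be divided in error.

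Peptide loading genes went in both directions between the hairpins: 6 of 14 were lower with hairpin 2 and 4 higher, with a median of -0.02. These counts, and the main counts of constitutive proteasome subunits below, stand beside 21.8% lower and 20.6% higher over all genes tested. Beside the control none was higher in either arm. With hairpin 1 all 14 were lower (median -0.77) and with hairpin 2 13 were (median -0.76), where 23.9% and 22.5% of all genes tested were. The immunoproteasome subunits PSMB8 (chromosome 6, 32840717 to 32844703, log2 -1.17) and PSMB9 (32844136 to 32859585, -1.12) and the peptide transporter TAP1 (32845209 to 32853978, -1.55) were lower. TAP1 fell from 13.6, 11.4 and 12 CPM to 3.73, 4.33 and 4.47 CPM. These genes lie side by side, the annotated spans of TAP1 and PSMB9 overlap on opposite strands, and no source used here states the strand setting of the counting. The proteasome activators PSME1 (-0.45) and PSME2 (-0.56) were lower too. Higher with hairpin 2 than with hairpin 1 were the chaperones CALR (0.20) and CANX (0.38), the bridge TAPBP (0.33) and the trimming peptidase ERAP1 (0.49). Constitutive proteasome subunits were lower for 5 of 14 (median -0.20), by at most 0.38 in size for PSMA4, and with length and GC content corrected for, 2 of 14 were lower and 4 higher.

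**Figure D3:**
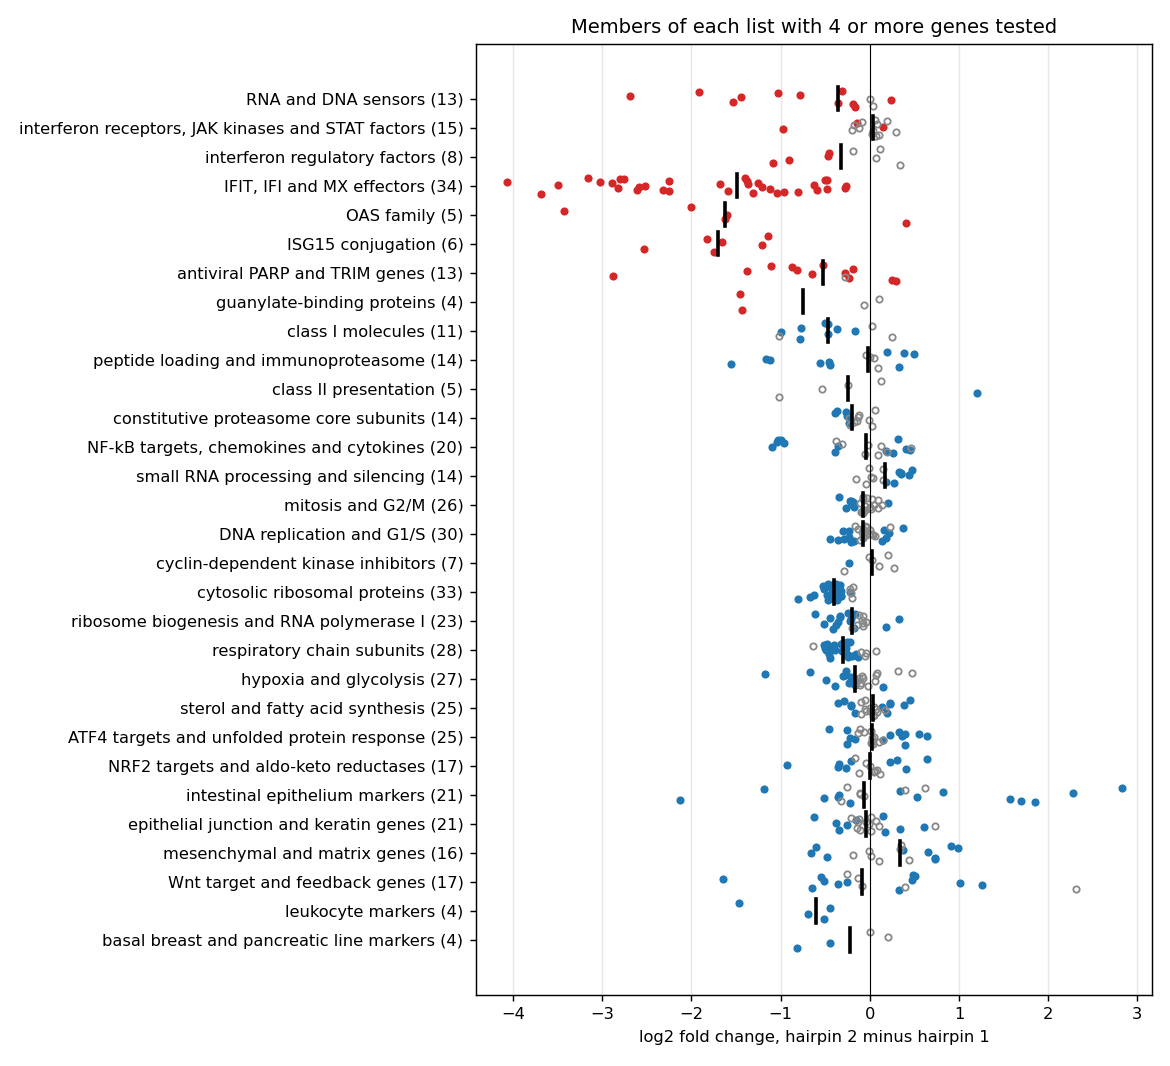
Log2 fold change of hairpin 2 over hairpin 1 for each member of every list with at least 4 genes tested, with the number tested in brackets. Filled points passed (red for interferon lists, blue for others), open points did not, and the black bar is the list's median, which reaches -1.70 for ISG15 conjugation and lies near 0 for mitosis and for sterol synthesis.

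The same-named hairpins were then compared in the other 2 lines, with the difference between lines tested as an interaction in fits of 18 libraries. Against MDA-MB-468, the hairpin 2 minus hairpin 1 difference was another in WiDr for 1813 of 15963 genes (11.4%), 967 higher in WiDr (6.06%) and 846 lower (5.30%). Against PANC-1 it was another for 1476 of 16269 (9.07%), 867 higher (5.33%) and 609 lower (3.74%). Within the other lines, 300 genes differed between the hairpins in MDA-MB-468 (1.88%, with 156 lower, 0.977%) in these fits. In PANC-1 314 did (1.93%, with 246 lower, 1.51%). The 6071 of WiDr came from a fit of 9 libraries with its own estimate of the spread, so it cannot be set against these counts. The count against MDA-MB-468 became 1178 without MDA-MB-468 hairpin 1 replicate 1, 1192 without WiDr hairpin 1 replicate 1 and 3175 without MDA-MB-468 hairpin 2 replicate 2. The count against PANC-1 became 954 without WiDr hairpin 2 replicate 1. Both tests share the WiDr libraries.

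Interferon genes were among those whose hairpin difference was another in WiDr. Of 100 list members tested in each fit, 50 were lower in WiDr against MDA-MB-468 and 1 higher, and 52 were lower and 2 higher against PANC-1. Over all genes, 5.30% were lower and 6.06% higher against MDA-MB-468, and 3.74% and 5.33% against PANC-1. The median hairpin difference of the 100 list members was -0.06 in either line, beside -0.89 in WiDr. Within MDA-MB-468 OAS2 (-0.92) and DHX58 (-0.61) were themselves lower with hairpin 2, and within PANC-1 OASL (-0.83), STING1 (-0.37), IFIT3 (-0.32), LGALS3BP (-0.31) and IRF1 (-0.30) were. OAS2 was at 2.94 ± 0.122 CPM with hairpin 1 and 1.55 ± 0.0139 CPM with hairpin 2 in MDA-MB-468 (SD, n = 3), and its interaction was -2.47. MX1 was at 25 ± 0.129 CPM with hairpin 1 and 23.0 ± 0.637 CPM with hairpin 2 in MDA-MB-468 (SD, n = 3), and at 7.73 ± 0.818 and 6.10 ± 0.435 CPM in PANC-1. The interaction of MX1 was -2.43 (SE 0.0799, edgeR adjusted p = 2.53e-11) against MDA-MB-468 and -2.24 (SE 0.127, edgeR adjusted p = 2.74e-08) against PANC-1. IFITM1, expressed at 15.8 to 66.9 CPM in both hairpin arms of the other lines, had interactions of -3.25 and -3.36. For IFIT1 (-2.72 and -2.60), OAS1 (-1.87 and -1.75), ISG15 (-1.76 and -1.54), IRF9 (-1.11 and -0.92) and TAP1 (-1.70 and -1.38) both tests passed.

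Many interferon list members and some other named genes did not pass in 1 or both lines. Of the 34 IFIT, IFI and MX effectors, 24 were lower in WiDr against each line. IFI27 gave -3.11 against MDA-MB-468 (edgeR adjusted p = 0.0556), where its mean level was 0.0103 to 0.0464 CPM. HLA-B passed against MDA-MB-468 (-0.90, adjusted p = 0.00281) but not against PANC-1 (-0.54, adjusted p = 0.0877, edgeR), and PSMB9 gave -1.14 (adjusted p = 0.0374) and -0.86 (adjusted p = 0.131, edgeR). The first PSMB9 call was lost in 10 of the fits with 1 library left out. IFI44L lay under 0.07 CPM on average in every arm of the other lines and could not be compared there (edgeR adjusted p = 0.186 and 0.101). FCGBP was higher in WiDr by 2.48 and 2.11, at 17.2 to 34.0 CPM in the arms of the other lines. TNFRSF11B passed against PANC-1 (3.73) and not against MDA-MB-468 (1.69, edgeR adjusted p = 0.115), and its mean level was under 0.7 CPM in every arm of both lines. KIAA1324L had no count in MDA-MB-468 and at most 0.339 CPM in PANC-1, so its value of 6.71 against PANC-1 rests on a few counts.

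**Figure D4:**
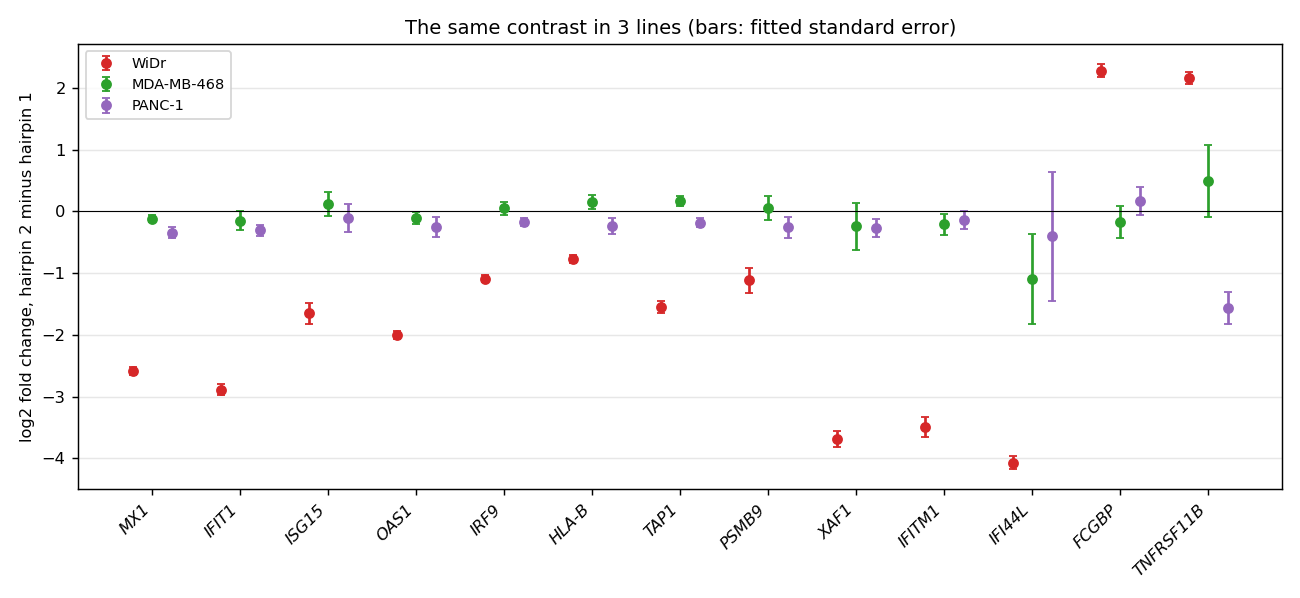
Log2 fold change of hairpin 2 over hairpin 1 in WiDr (fit of 9 libraries), MDA-MB-468 and PANC-1 (fits of 18 libraries), with fitted standard errors as bars. For MX1, IFIT1, OAS1 and TAP1 the WiDr points lie between -2.89 and -1.55 while the points of the other lines lie between -0.34 and 0.17. The bars are widest for IFI44L, which is almost absent outside WiDr.

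Among the intestinal markers, 4 genes of goblet cells or their lineage, MUC2, FCGBP, TFF3 and ATOH1, were higher with hairpin 2. The list has no group of its own for goblet cells, so these 4 were brought together after their values were seen. MUC2 (chromosome 11, 1074875 to 1110511), the gel-forming mucin of the intestine, was at 14.9, 23.2 and 23.2 CPM with hairpin 1 and 67.9, 50.9 and 64.6 CPM with hairpin 2, with the control at 27.1, 28.7 and 25.2 CPM (log2 1.57, SE 0.169). FCGBP (chromosome 19, 39863323 to 39934626), a mucus protein that cross-links with MUC2, was at 3.33, 4.08 and 4.34 CPM with hairpin 1 and 20.5, 18 and 19.1 CPM with hairpin 2 (2.28). TFF3 (chromosome 21, 42311667 to 42315651), the trefoil peptide of goblet cells, rose from 3.85, 2.89 and 3.09 CPM to 12.7, 11.7 and 10.7 CPM (1.85). In these 3 genes the hairpin 2 libraries also lie above the control, which stands at 7.63 to 8.97 CPM for FCGBP and 4.19 to 5.51 CPM for TFF3. ATOH1, the transcription factor that commits intestinal cells to the secretory lineage, was at most 0.129 CPM with hairpin 1 and 0.691 to 0.784 CPM with hairpin 2 (2.82, SE 0.432), a low level. SPINK4 had 0 to 4 counts and was not tested.

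Over the whole intestinal list, 8 of 21 genes tested were higher and 6 lower, with a median of -0.06, beside 20.6% and 21.8% of all genes tested. Besides those 4 genes it held 17, of which 4 were higher and 6 lower. KRT20 (0.54), CEACAM5 (0.34), CEACAM6 (0.82) and the stem cell matrix gene SMOC2 (1.69) were higher with hairpin 2, and each of these 4 had its lowest level with hairpin 1. SMOC2 stood at 12 ± 0.594 CPM in the control, 3.36 ± 0.813 with hairpin 1 and 10.9 ± 0.302 with hairpin 2 (SD, n = 3). Lower were PHGR1 (-2.12), CDX1 (-1.19), the stem cell receptor LGR5 (-0.51), the lectin LGALS4 (-0.36), the factor HNF4A (-0.35) and the brush border gene VIL1 (-0.22). PHGR1, a small gut epithelial gene, was at 20.6, 17.5 and 16.9 CPM with hairpin 1, 3.60, 5.05 and 3.71 CPM with hairpin 2 and 2.17, 3.0 and 2.70 CPM in the control. The hairpin 1 arm is the one that stands apart there.

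ATF4 targets and unfolded protein response genes had no common direction: of 25, 8 were higher and 5 lower (median 0.03), beside 20.6% and 21.8% of all genes tested. HSPA5 (chromosome 9, 125234853 to 125241330), the main chaperone of that compartment, was at 1053, 940 and 949 CPM with hairpin 1 and 1527, 1518 and 1549 CPM with hairpin 2 (0.64, SE 0.0564), with the control at 1470, 1444 and 1440 CPM. DNAJB9 (0.55), XBP1 (0.40), HERPUD1 (0.40), PDIA4 (0.36), CRELD2 (0.33) and HSP90B1 (0.23) were higher, and for each of these the hairpin 1 arm lay beneath the control. The amino acid response genes ASNS (-0.45), ATF4 (-0.26), PHGDH (-0.22) and PSPH (-0.16) were lower, and DDIT3 (-0.06) and TRIB3 (0.04) did not pass. The interaction was higher in WiDr for 7 members of the list against MDA-MB-468 and for 8 against PANC-1, and lower for 1 in each. Over all genes, 6.06% were higher and 5.30% lower against MDA-MB-468, and 5.33% and 3.74% against PANC-1.

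A further 20 secretory and mucus genes were chosen after values had been seen, and 12 were higher, 2 lower and 6 did not pass, counts that the choice of genes shapes. MUC5AC, a gel-forming mucin found outside the normal colon, was at 1179, 1840 and 1860 CPM with hairpin 1, 4026, 3190 and 3772 CPM with hairpin 2 and 3964, 4179 and 3950 CPM in the control (1.17). The coat subunit SEC24D was at 76.8 ± 4.90 CPM with hairpin 1 and 195 ± 2.02 with hairpin 2 (SD, n = 3, log2 1.34). The chaperone HYOU1 (0.96) and the transcription factors CREB3L2 (1.21), CREB3L1 (0.52), SPDEF (0.39) and BHLHA15 (1.2) were higher as well, and TFF1 (0.21), REG4 (0.47), MUC1 (-0.02), MUC13 (0.05), FOXA3 (-0.08) and KLF4 (0.10) did not pass. AGR3 (-0.62) and ERN2 (-0.24), which mucus-making cells also express, were lower.

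**Figure D5:**
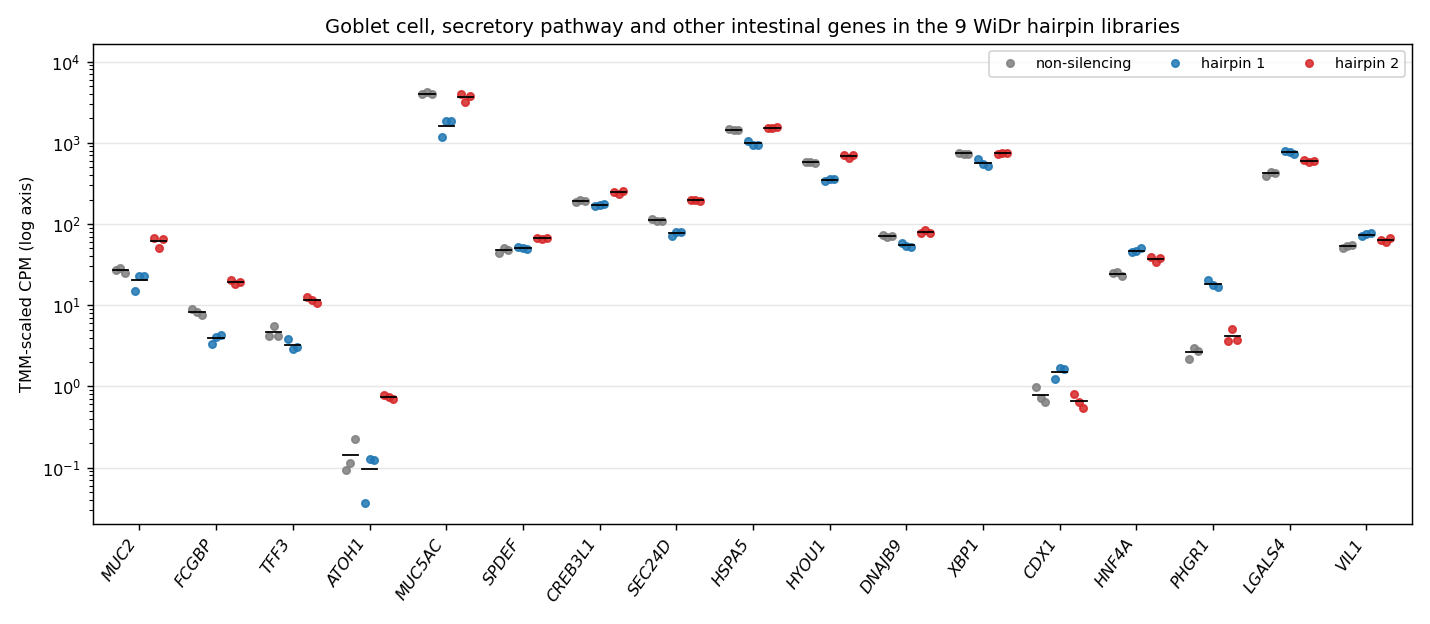
TMM-scaled CPM on a log axis of 17 goblet, secretory and other intestinal genes, 1 point per library, with a black bar at the mean of each arm (n = 3). For MUC2, FCGBP and TFF3 the red hairpin 2 points lie above both other arms, for MUC5AC and HSPA5 the blue hairpin 1 points lie beneath the other arms, and for PHGR1 the blue points lie above them.

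Other large rises by the naming rule had mixed roles. TNFRSF11B, the decoy receptor osteoprotegerin, was at 3.88, 3.18 and 3.64 CPM with hairpin 1 and 14.6, 16.8 and 16.4 CPM with hairpin 2 (2.16). SYNE1 (chromosome 6, 152121684 to 152637801), a giant protein that links the nucleus to the cytoskeleton, went from 12.7, 16.8 and 16.0 CPM to 50.4, 43.9 and 49.6 CPM (1.65), with the control close to hairpin 1 (16.5, 16.0 and 17.7 CPM). The actin cross-linker FLNC (1.55), the synaptic scaffold SHANK2 (1.46), the transcription factor SOX6 (1.44), the cholesterol esterifying enzyme SOAT1 (1.44), KIAA1324L (1.93) and CCDC149 (1.61) complete the 12. For SHANK2, SMOC2 and CCDC149 hairpin 2 lay near the control (-0.11, -0.15 and -0.31) and hairpin 1 beneath it (-1.57, -1.84 and -1.92).

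Wnt target and feedback genes split, with 6 higher and 6 lower of 17 tested (median -0.09). EPHB2, a crypt receptor kinase, was at 15.2, 17.8 and 15.7 CPM with hairpin 1 and 5.13, 5.09 and 5.31 CPM with hairpin 2 (-1.65). CD44 (-0.55), TCF7 (-0.65) and MYC (-0.25) were lower. The negative feedback genes NKD1 (1.01), AXIN2 (0.49), ZNRF3 (0.33) and NOTUM (1.26, at up to 2.07 CPM) were higher. Mesenchymal and matrix genes were higher for 6 of 16 tested and lower for 3 (median 0.34). The junction and keratin genes were higher for 4 of 21 and lower for 5 (median -0.05). These 3 lists stand beside 20.6% higher and 21.8% lower over all genes tested.

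Ribosomal protein genes were lower with hairpin 2 than with hairpin 1 for 29 of 33 tested (median -0.40), and respiratory chain genes for 23 of 28 (median -0.30), neither with a member higher. These counts, and those of small RNA processing genes below, stand beside 21.8% lower and 20.6% higher over all genes tested. Beside the control, 19 respiratory genes were higher and 1 lower with hairpin 1 (median 0.36), and 6 were higher and 3 lower with hairpin 2 (median 0.05). For ribosomal protein genes, 16 were higher and none lower with hairpin 1 (median 0.22), and none was higher and 9 lower with hairpin 2 (median -0.20). Over all genes tested, 24.1% were higher and 23.9% lower with hairpin 1 beside the control, and 22.2% and 22.5% with hairpin 2. RPS6 was at 2664, 2105 and 1927 CPM with hairpin 1, 1253, 1283 and 1289 CPM with hairpin 2 and 1465, 1566 and 1535 CPM in the control (-0.81). The respiratory subunit NDUFA4 was at 107, 96.0 and 84.9 CPM with hairpin 1 and 66.9, 72.8 and 63.7 CPM with hairpin 2 (-0.50). Small RNA processing genes were higher for 7 of 14 and lower for none (median 0.17), with AGO2 at 0.48 and DICER1 at 0.44. Replicate 1 of hairpin 1 is the highest library for RPS6 and NDUFA4. The summed ribosomal protein level was 55284 CPM there, against 45480 and 41823 CPM in the other hairpin 1 libraries, 35645 to 36782 CPM with hairpin 2 and 37569 to 42055 CPM in the control. Without that library 27 of 33 ribosomal protein genes were lower, with a median of -0.28, and 21 of 28 respiratory genes, with a median of -0.19.

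These 3 lists also differ in transcript length. The median longest transcript was 1747 bases for ribosomal protein genes, 1912 for respiratory genes and 7777 for small RNA processing genes, beside 3518 over all genes tested (GENCODE 29). Over all genes, the shortest of 5 equal bins by length held 36.8% lower and 6.62% higher genes, and the longest bin 11.4% lower and 36.6% higher. After correction for length and GC content, an alternative chosen after seeing the data, 24 of 33 ribosomal protein genes were lower, 15 of 28 respiratory genes were lower and 1 higher, and 5 of 14 small RNA genes were higher and 2 lower. With all 36 libraries in 1 fit these became 6, 5 and, for small RNA genes, 2 higher. The part of transcript length, ribosomal RNA content and replicate 1 in these differences was not tested further. The interferon effectors had a median length of 2610.5 bases, and 32 of 34 were lower after the same correction (median -1.43).

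Growth genes differed little between the hairpins. Of 26 mitotic genes 7 were lower, 1 was higher and 18 did not pass (median -0.07), and for the 7 the falls were small, as for AURKB (-0.34) and CCNB1 (-0.21). Of 30 replication genes 8 were lower and 5 higher (median -0.07). The cyclin-dependent kinase inhibitor CDKN1A was at 21.5, 19.4 and 20.4 CPM with hairpin 1 and 23.4, 22.5 and 25 CPM with hairpin 2 (0.21, edgeR adjusted p = 0.0517), and CDKN2A was lower (-0.23). Hypoxia and glycolysis genes were lower for 14 of 27 and higher for 1 (median -0.17), led by CA9, a carbonic anhydrase, at 71.5, 63.2 and 55.5 CPM with hairpin 1 and 26.2, 28.1 and 29.8 CPM with hairpin 2 (-1.18). Sterol and fatty acid synthesis (6 higher, 5 lower of 25) and NRF2 targets (4 higher, 5 lower of 17) had no common direction. All counts in this paragraph stand beside 20.6% higher and 21.8% lower over all genes tested.

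Among 20 NF-kB targets and cytokines tested 7 were lower and 5 higher (median -0.04), beside 21.8% and 20.6% of all genes tested. Their log2 differences ran from -1.10 to 0.46, and 3 were at least 2-fold lower, not all of them named here. The T cell attractants CXCL10 (-1.04), CXCL11 (-0.96) and CCL5 (-1.0) were lower, at 1.03 to 2.31 CPM with hairpin 1 and 0.431 to 1.17 CPM with hairpin 2. These 3 attractants are induced by interferon as well as NF-kB. NFKB1 (0.45) and RELA (0.26) were higher and the inhibitor NFKBIA was lower (-0.38).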

How the data were processed

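The authors deposited RSEM expected counts per gene for 36 libraries (3 per arm), made with Bowtie2 2.1.0 and RSEM 1.2.15 on hg38 per the submitters' processing notes. No source used here states the annotation or the strand setting. Expected counts were rounded to whole numbers. The 9 WiDr hairpin libraries were fitted with edgeR 4.0.16 (R 4.3.3; TMM scaling, filterByExpr with 10 counts, robust quasi-likelihood fit on arm), and the contrast was hairpin 2 minus hairpin 1, with Benjamini-Hochberg adjustment over 14317 of 26475 genes and a threshold of 0.05. Line differences were interactions in fits of 18 libraries. Levels are TMM-scaled CPM, comparable between arms for 1 gene but not between genes, since they are not per length. Standard errors are the log2 difference over the root of the F statistic. On simulated counts 67, 67 and 66 genes were given 1.5-, 2- and 4-fold changes and all others were equal between arms. Of these changes 77.6%, 85.1% and 95.5% were recovered over 14201 genes, with 13 false calls. The simulation held far fewer changed genes than were called here and no shift by length or ribosomal RNA. It therefore does not give the error rate of the 6071 calls. Replicate libraries differed by more than sampling noise (chi-square per degree of freedom 4.01 to 48.6). Named genes were the 12 largest rises and 12 largest falls past the threshold with at least 5 CPM and no overlap between arms, plus members of the gene lists. Members and lists were chosen with earlier results of these data known. Coordinates are GENCODE 29 on GRCh38. Length and GC content were matched for 97.0% of genes tested. The gene the hairpins address and some list members are not reported here, and the guide libraries are used only in the fit of all 36.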

Additional observations from a re-analysis of the deposited data

Results flagged for a closer look

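The difference between hairpin 2 and hairpin 1 was another in WiDr than in MDA-MB-468 for 1813 genes, and another than in PANC-1 for 1476 genes, by the interaction test in edgeR. Against MDA-MB-468 the named genes that passed had interactions (log2, WiDr minus the other line) of -2.43 for MX1, -2.72 for IFIT1, -1.76 for ISG15, -1.87 for OAS1, -1.11 for IRF9, -0.90 for HLA-B, -1.70 for TAP1, -1.14 for PSMB9, -3.42 for XAF1, -3.25 for IFITM1 and 2.48 for FCGBP. Against PANC-1 they were -2.24 for MX1, -2.60 for IFIT1, -1.54 for ISG15, -1.75 for OAS1, -0.92 for IRF9, -1.38 for TAP1, -3.41 for XAF1, -3.36 for IFITM1, 2.11 for FCGBP, 3.73 for TNFRSF11B and 6.71 for KIAA1324L. XAF1 lay under 0.5 CPM in MDA-MB-468, and TNFRSF11B and KIAA1324L were near their detection limit in PANC-1, so these interactions rest on low counts in the other line. With 3 libraries in each arm, single libraries were not tested as outliers.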

How the results depend on the processing

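Without single libraries, genes that differed numbered 4692 to 6420, those at 2-fold 425 to 541, and the interactions 1178 to 3175 (MDA-MB-468) and 954 to 1578 (PANC-1). All 36 libraries in 1 fit gave 3210 genes that differed, a minimum of 1 CPM in 6 libraries gave 234 at 2-fold, and a replicate block gave 793 interactions against PANC-1. The cause of these changes was not tested. Same-numbered WiDr libraries did not deviate together (correlations -0.217 to 0.080 over 9 pairs, against -0.215 to 0.241 over 18 other pairs), so the labels' numbers give no pairing. The replicate block gave 5618 genes that differed. DESeq2 gave 5908. The 24 named WiDr genes and the other 6 of the interaction tests kept direction and call under all alternatives run. Of the interactions, PSMB9 against MDA-MB-468 lost its call in 10 fits, and TNFRSF11B (edgeR no, DESeq2 adjusted p = 0.0274) gained one, as did IFI44L against PANC-1 with DESeq2 and without PANC-1 hairpin 1 replicate 2, and HLA-B and PSMB9 against PANC-1 without PANC-1 hairpin 1 replicate 1. Depth limits the interferon ligands, ATOH1 and genes absent from the other lines.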

Other observations

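Neighbouring genes differed together between the hairpins in several places. Windows of 9 neighbouring tested genes were moved along each chromosome, and runs were picked for description after their values were seen, with no test of the clustering. Over 13186 windows the median log2 difference had its 1st percentile at -0.37 and its 99th at 0.46. The lowest window (-1.02) runs from PBX2 to TAP1 on chromosome 6, and windows that hold the IFIT genes on chromosome 10 (-0.81) and the metallothionein genes on chromosome 16 (-0.63) were also low. A protocadherin window on chromosome 5 stood at 0.94, with 7 genes higher and none lower, and windows on chromosomes 11 (0.74), 2 (0.71) and 4 (0.64, from RELL1 to KLHL5) were also high. The highest window (1.08) lies in the zinc finger cluster of chromosome 19. From ZNF45 to ZNF112 (43912629 to 44367217, GRCh38), all 15 zinc finger genes tested were higher with hairpin 2, by 0.53 to 1.23. Beside the control all 15 were lower with hairpin 1 (-1.55 to -0.76), and 8 were lower with hairpin 2 (values of all 15 from -0.61 to 0.33). ZNF222 was at 5.86, 6.02 and 5.94 CPM in the control, 2.02, 1.77 and 2.26 CPM with hairpin 1 and 4.28, 5.27 and 4.62 CPM with hairpin 2. The interaction passed for 12 of the 15 against MDA-MB-468 and for 9 against PANC-1, beside 11.4% and 9.07% of all genes. ZNF180, the next zinc finger gene tested beyond the run, was at -0.07 and did not pass. These genes share sequence, and reads can be divided among them in error.

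Elsewhere on chromosome 4 (932387 to 1026897), the 5 tested neighbours TMEM175, DGKQ, SLC26A1, IDUA and FGFRL1 were all lower with hairpin 2 and all higher with hairpin 1 beside the control. FGFRL1, a receptor that binds fibroblast growth factors without a kinase domain, was at 63.0, 70.8 and 65.1 CPM in the control, 196, 222 and 211 CPM with hairpin 1 and 74.1, 72.4 and 73.0 CPM with hairpin 2. DGKQ, a diacylglycerol kinase, was at 37.4, 39.9 and 38.0 CPM, 94.6, 95.3 and 96.2 CPM, and 37.4, 38.2 and 37.5 CPM in the same order. For both the hairpin 2 libraries lie close to the control and hairpin 1 stands apart. GAK and CTBP1 on either side were higher with hairpin 2 (0.44 and 0.30).

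Some of the best separated single genes belong to neither run. PACRGL was at 74.3, 71.5 and 75.3 CPM with hairpin 1 and 24.8, 25.1 and 29.2 CPM with hairpin 2, beside 28.8, 26.0 and 25.8 CPM in the control (log2 -1.49). ANXA13, an annexin of intestinal epithelium, was at 83.3, 77.4 and 69.9 CPM with hairpin 1, 18.2, 16.2 and 17.8 CPM with hairpin 2 and 8.22, 8.16 and 8.13 CPM in the control (-2.15). The retinoid enzymes ALDH1A3 (1.29) and DHRS9 (1.28) were higher with hairpin 2 than with hairpin 1 and lower with both than in the control: ALDH1A3 stood at 353 ± 3.55, 58.8 ± 2.19 and 144 ± 2.15 CPM in the control, hairpin 1 and hairpin 2 arms (SD, n = 3).

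Interferon-related genes outside the lists were also lower with hairpin 2, by choice after seeing their values: HSH2D (-1.73), BISPR, a noncoding RNA beside BST2 (-1.54), DDX60L (-1.07) and PHF11 (-0.96).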
